A study of Mus musculus with 6 samples.

Results

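Liver nuclear receptors are the subject here: 10 genes of the nuclear receptor family with roles in liver, out of 19938 mouse genes with a probe in the deposited table. The members are Nr1i2, Nr1i3, Nr1h3, Nr1h4, Nr0b2, Nr5a2, Hnf4a, Rxra, Esr1 and Nr3c1. They were listed by name, by a rule that uses no measured value but was set with earlier results of these data known. A probe had to be annotated to 1 gene symbol, and the brightest such probe stood for its gene; all 10 members had exactly 1. All 10 had a mean log2 signal of at least 5 over the 6 arrays, the minimum for testing, which 10977 genes passed. Whole livers of C57Bl6/J mouse pups, by the labels at most 1 day old, were measured on 6 Affymetrix arrays. The mothers ate 1 of 3 isocaloric diets with 6 g% of commercial oil: soybean oil (Control), flaxseed oil (ALA, for which the labels give 31.6% alpha-linolenic acid), or coconut oil (SFA, given as 48.51% saturated fatty acids). Sires ate regular chow except while mating, when they shared the diet of the females. Each diet had 2 arrays and each array a pool of 3 livers, so a pool mean and not an animal is the unit of every value. No genotype or drug treatment is given for any group, and the labels name neither sex, litter nor time of day. The p-values below measure only the spread between these pools. In ALA and SFA that spread may be technical, while the control pools also differed in sex-linked signal, as given below.

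Most nuclear receptors bind short DNA elements, and many switch genes on or off when a small lipophilic ligand fits their ligand pocket. In liver, PXR (Nr1i2) and CAR (Nr1i3) sense drugs, steroids and bile acids and drive detoxification, FXR (Nr1h4) senses bile acids, LXR alpha (Nr1h3) senses oxysterols, and RXR alpha (Rxra) is the partner with which all of these bind DNA. SHP (Nr0b2) has no DNA-binding domain and represses other receptors, among them LRH-1 (Nr5a2), which activates bile acid synthesis. HNF4A (Hnf4a) maintains hepatocyte identity, and the oestrogen receptor (Esr1) and the glucocorticoid receptor (Nr3c1) answer to circulating steroids.

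The stretches before the start sites of 3 members are shown because Nr1i3 and Nr1i2 carry the called differences and Nr0b2 has the widest spread across diets among the rest. Each is the 250 bases before the gene start from RefSeq (GRCm38.p6), on the gene's own strand, at chr1:171213720-171213969 (plus strand) for Nr1i3, chr16:38294825-38295074 (minus strand) for Nr1i2 and chr4:133553126-133553375 (plus strand) for Nr0b2. Capitals mark matches to any of 4 letter strings searched on both strands.
Nr1i3: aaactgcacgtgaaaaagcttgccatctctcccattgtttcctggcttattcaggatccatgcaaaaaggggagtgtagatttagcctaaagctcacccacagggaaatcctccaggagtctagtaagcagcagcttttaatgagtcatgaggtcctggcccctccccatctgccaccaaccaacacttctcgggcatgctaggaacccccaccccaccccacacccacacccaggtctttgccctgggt
Nr1i2: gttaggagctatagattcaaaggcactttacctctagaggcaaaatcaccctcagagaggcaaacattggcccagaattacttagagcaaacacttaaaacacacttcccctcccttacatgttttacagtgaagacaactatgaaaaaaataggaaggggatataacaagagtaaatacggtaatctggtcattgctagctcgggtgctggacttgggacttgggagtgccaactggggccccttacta
Nr0b2: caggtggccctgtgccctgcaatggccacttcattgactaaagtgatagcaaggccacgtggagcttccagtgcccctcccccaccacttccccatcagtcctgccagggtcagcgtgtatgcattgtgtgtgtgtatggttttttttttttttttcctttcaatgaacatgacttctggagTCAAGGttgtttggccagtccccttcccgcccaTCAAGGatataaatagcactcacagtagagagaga
The strings were AGGTCA, the core that many nuclear receptors bind, TCAAGG, the core of LRH-1 sites, TGTTCT, the core of glucocorticoid receptor sites, and CAAAGTCCA, an HNF4-type site. Of all 32851 RefSeq windows of this length, 14%, 12.5%, 16.1% and 0.384% held them, in that order. The Nr0b2 window held TCAAGG at 2 places, beginning 68 and 35 bases before the gene start, and neither overlapped another string. The windows of Nr1i3 and Nr1i2 held none of the 4. Over the 14 windows of the 9 members read (several members have 2 starts, and Nr3c1 was not read), AGGTCA lay in 1 window each of Nr1h4, Nr5a2 and Rxra, and TGTTCT in both of Nr5a2. A match is a description of letters only, and no binding was measured.

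The deposited values are log2 signals after RMA (robust multi-array average). Across the 10977 tested genes, limma's moderated test with Benjamini-Hochberg adjustment called 871 genes in ALA against control (561 higher, 310 lower), 1512 in SFA against control (727 higher, 785 lower) and 168 in ALA against SFA (120 higher, 48 lower). The split of the last pair of comparisons moved with the scaling: SFA against control gave 967 higher and 528 lower after quantile normalization, 1004 and 515 after centring on the 75th percentile, and 957 and 586 after cyclic loess. ALA against SFA gave 34 and 34, 42 and 58, and 42 and 34 in the same order. The pools also differed in ways the diet labels do not name. Xist was at 3.76 and 4.24 in ALA, 9.46 and 9.51 in SFA and 10.67 and 8.34 in control, while the Y-linked Eif2s3y was at 7.74 and 7.80, 4.11 and 3.79, and 3.63 and 7.95. Diet and sex makeup therefore cannot be told apart. Fetal liver genes were higher in both diets than in control (5 of 10 tested called in ALA, 7 of 10 in SFA), and adult liver genes lower (5 of 13 and 7 of 13), with array means of 10.06 and 11.02 in control against 8.22 to 8.89 on the other arrays. Of the hepatocyte markers, 1 of 10 was called in ALA (Tat, also on the glucocorticoid receptor target list) and 0 of 10 in SFA. Their array means ran from 12.04 to 12.21, and the albumin gene Alb lay between 12.58 and 12.75, among the highest signals on the arrays. Whether signals this high still follow RNA amount was not tested. Macrophage markers were called higher for 11 of 12 in ALA and 9 of 12 in SFA (array means 6.82 and 6.90 in control, 7.72 to 8.15 elsewhere), and endothelial markers for 7 of 12 in each (6.99 and 7.52, against 7.97 to 8.34). For stellate cell and fibroblast markers the counts were 9 of 12 and 11 of 12 (6.20 and 6.53, against 7.43 to 7.55), and for cell cycle genes 7 of 12 and 10 of 12. Afp, which newborn mouse liver is known to express abundantly, lay between 4.52 and 6.44 on the 6 arrays, with its mean at percentile 52.2 of all genes with a probe, which goes against the labelled age. The part of sex, age and cell makeup in the results below was not tested.

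Of the 10 receptor genes, Nr1i2 was called higher in both test diets and Nr1i3 was called lower in SFA, and no other member passed the test in any contrast. In ALA against control 1 of 10 members was called (Nr1i2, higher), where 7.93% of all tested genes were called, 5.11% higher and 2.82% lower. For SFA against control it was 2 of 10 (Nr1i2 higher, Nr1i3 lower), beside 13.8% of all genes, 6.62% higher and 7.15% lower. Between ALA and SFA, 1 of 10 was called (Nr1i3, higher in ALA), beside 1.53% of all genes, 1.09% higher and 0.437% lower. The moderated F test of any difference between diets called Nr1i2 and Nr1i3, beside 13.5% of all genes. With 10 members, each count is within 1 gene of the number that the background share would give. The pair of arrays of a test diet did not overlap with the control pair for 7 members in ALA and 7 in SFA, and the ALA and SFA pairs did not overlap for 6, where 55%, 64.2% and 55.8% of all tested genes did the same.

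**Figure D1:**
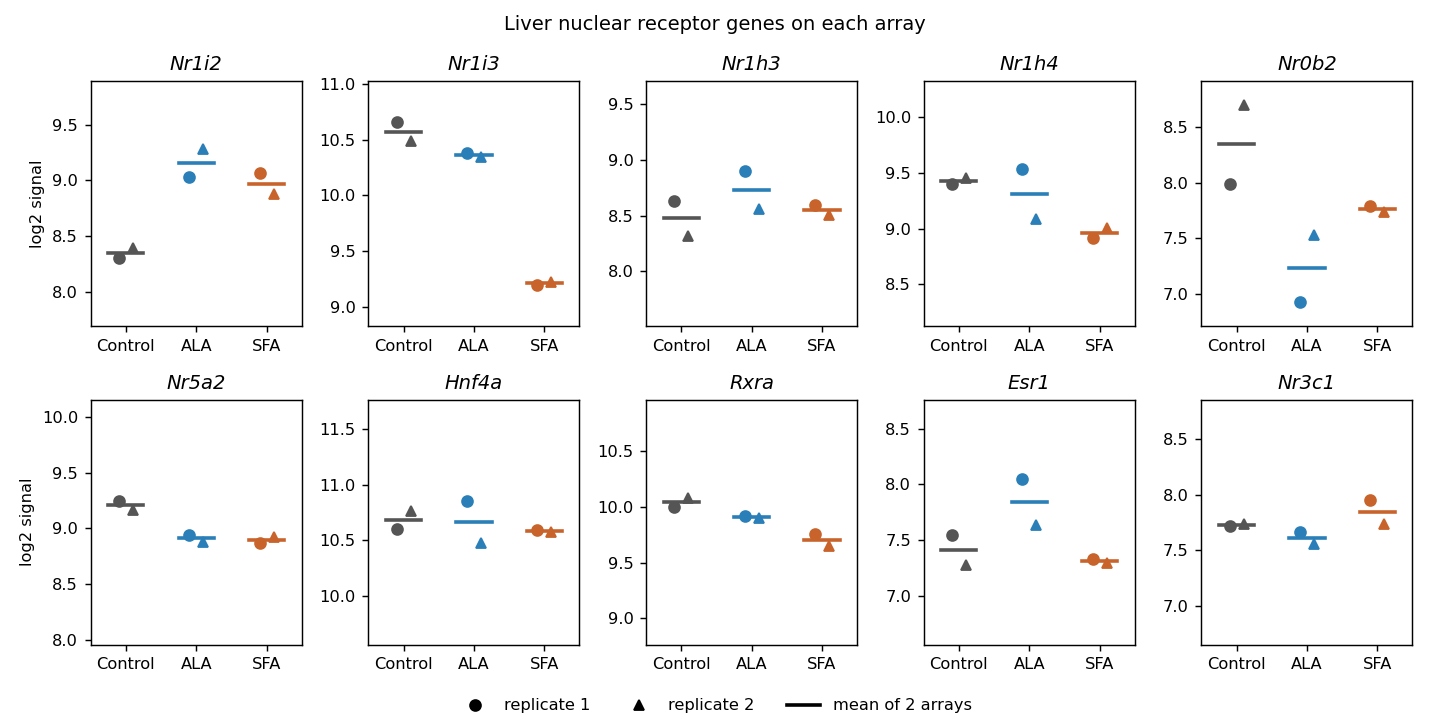
Deposited log2 signal of the 10 receptor genes on each array, by maternal diet (circles replicate 1, triangles replicate 2, bars the mean of 2 arrays, each axis set per gene and not starting at 0). Nr1i3 stands at 9.20 and 9.22 on the SFA arrays and at 10.34 or more on the other 4, and Nr1i2 is at 8.30 and 8.39 on the control arrays and at 8.87 or more on the other 4.

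Nr1i3, which encodes CAR, had the largest called difference of the 10. Its log2 signal was 10.66 and 10.49 in control, 10.38 and 10.34 in ALA, and 9.20 and 9.22 in SFA. Both SFA arrays lay more than 1 log2 unit below the other 4, while the ALA arrays lay just under the controls. Nr1i3 fell by 1.36 in SFA against control (SE 0.12, 95% interval -1.65 to -1.07, adjusted p = 0.00302, n = 2 arrays per diet), a level 2.57-fold lower. The call was kept in all 15 alternative settings. Against control, the ALA difference was -0.21 (SE 0.12, 95% interval -0.50 to 0.08, adjusted p = 0.353). The direct contrast gave a level 1.15 higher in ALA than in SFA (SE 0.12, 95% interval 0.86 to 1.45, adjusted p = 0.0348), and this call was kept in 7 of the 15 settings. It was lost with the replicate number as a block, with only the arrays of the diets compared and whichever array was left out. With an array left out, the differences ran from 1.13 to 1.17. Leaving out either control array gave the same fit as only the arrays compared, so these losses are not separate. The part of sex makeup in this fall was not tested. In whole liver, fewer cells of a type and less RNA per cell cannot be told apart.

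Nr1i2, which encodes PXR, was higher with both test diets. Its log2 signal was 8.30 and 8.39 in control, 9.03 and 9.28 in ALA and 9.06 and 8.87 in SFA. All 4 arrays of the test diets lay above both controls, and the ALA and SFA arrays overlapped. Nr1i2 rose by 0.81 in ALA (SE 0.14, 95% interval 0.47 to 1.15, adjusted p = 0.0220), a 1.751-fold level, and by 0.62 in SFA (SE 0.14, 95% interval 0.29 to 0.96, adjusted p = 0.0345), a 1.54-fold level. ALA minus SFA was 0.19 (SE 0.14, 95% interval -0.15 to 0.52, adjusted p = 0.474). The ALA call went when any of 3 arrays was left out: control replicate 1 (0.77, adjusted p = 0.0865), control replicate 2 (0.85, 0.0846) or ALA replicate 2 (0.69, 0.0888). The SFA call was lost without either control array (0.58 and 0.66, adjusted p = 0.122 and 0.115) or either SFA array (0.53 and 0.72, adjusted p = 0.160 and 0.0930), without the signal filter (adjusted p = 0.0547) and with the replicate number as a block (0.0528). The array means of macrophage, endothelial and stellate cell markers were higher on the same 4 arrays. Not every single marker was: Egfl7 was at 8.04 and 7.70 in control and 7.64 and 7.49 in SFA. The part of cell makeup in the rise of Nr1i2 was not tested.

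**Figure D2:**
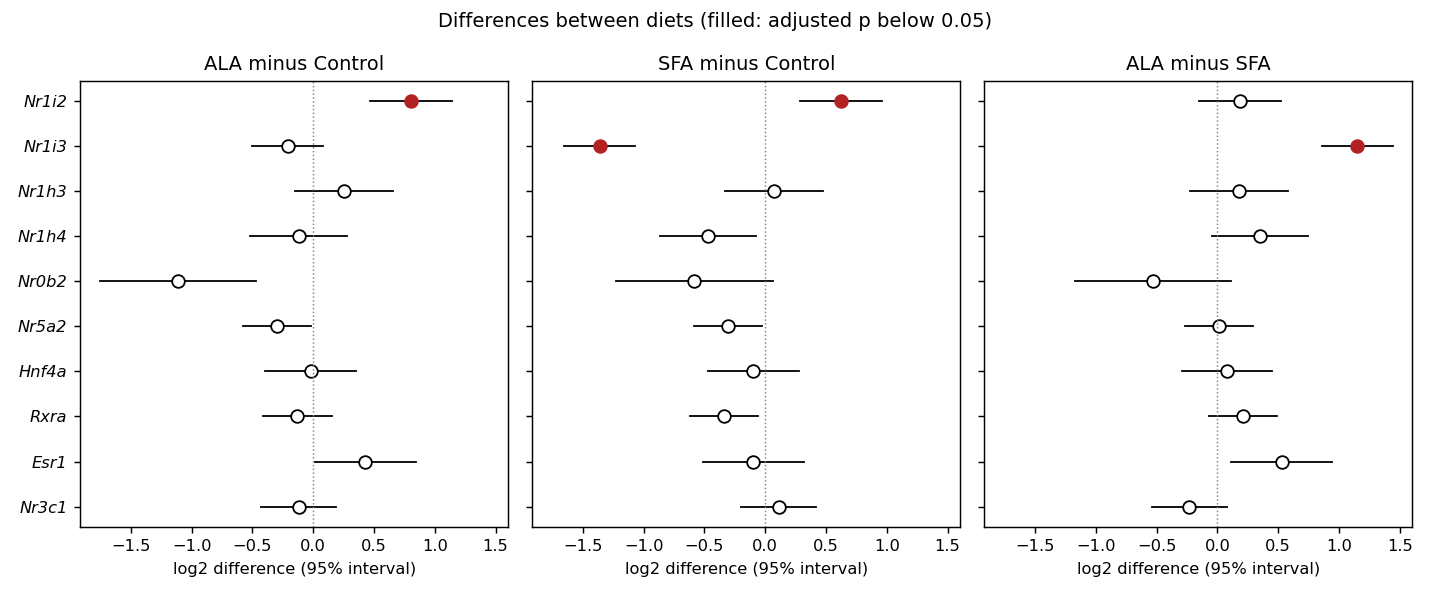
Log2 difference of each receptor gene in the 3 contrasts, with 95% intervals from the limma fit (n = 2 arrays per diet). Filled red points had an adjusted p below 0.05: Nr1i2 at 0.81 and 0.62 against control, and Nr1i3 at -1.36 in SFA against control and 1.15 in ALA against SFA.

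Genes that PXR and CAR are known to induce were called in both directions. The list held 28 genes, of which 23 had a single-gene probe and were tested. In ALA 1 was called higher and 3 lower, 17.4% of those tested beside 7.93% of all genes (median log2 difference -0.17, against -0.01 over all tested genes). In SFA 2 were called higher and 3 lower, 21.7% beside 13.8% (-0.06, against -0.05). Between ALA and SFA 1 was called higher and 1 lower, 8.70% beside 1.53% (-0.19, against 0.04), and 17 of the 23 differences were negative. Cyp3a11, the main PXR-induced cytochrome P450 of mouse liver, was at 11.83 and 11.66 in control, 11.41 and 11.57 in ALA and 11.71 and 11.66 in SFA. Its differences were -0.25 in ALA (SE 0.13, adjusted p = 0.293) and -0.06 in SFA (SE 0.13, adjusted p = 0.784), and neither was called. Cyp2b10, the classical CAR target, was at 11.08 and 8.73 in control, 11.01 and 10.47 in ALA and 10.76 and 10.78 in SFA. The control arrays thus lay on both sides of the test diets, and its differences of 0.83 and 0.87 (SE 0.65) were not called. Without control replicate 1 they were 2.01 and 2.05 and passed (adjusted p = 0.0153 and 0.0138), and without control replicate 2 they were -0.35 and -0.31. Control replicate 1 also had the higher signal of Cyp2b9 (12.13 against 10.62) and Cyp2b13 (10.48 against 7.52). These paralogs are female-predominant in adult mice. Cyp2b9 was at 11.63 and 11.56 in ALA and 11.63 and 11.61 in SFA. Cyp2b13 was at 8.83 and 8.11 in ALA and 8.46 and 8.60 in SFA. The part of sex makeup in these values was not tested. Without control replicate 1 the count of listed targets called higher in SFA was 6, and without control replicate 2 or either SFA array it was 0. The other counts ran from 0 to 3 higher and 1 to 4 lower in ALA and from 1 to 3 lower in SFA when 1 array was left out. Whether the probes of these paralogs cross-hybridise was not tested.

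Cyp2c55, another cytochrome P450 induced through both receptors, was at 6.28 and 5.31 in control, 5.08 and 7.03 in ALA and 9.02 and 9.07 in SFA. It rose by 3.25 in SFA (SE 0.59, adjusted p = 0.0177), with both SFA arrays far above the other 4. The call did not survive the loss of control replicate 2 (2.77, adjusted p = 0.0993), either SFA array (3.28 and 3.23, adjusted p = 0.0855 and 0.0879) or with an intensity trend and robust fit (0.0845). Aldh1a1, a retinal dehydrogenase gene, fell by 1.52 in ALA and 1.31 in SFA (SE 0.14 each, adjusted p = 0.00406 and 0.00429) and kept both calls in every setting. Its paralog Aldh1a7 was at 9.76 and 9.76 in control, 7.99 and 8.60 in ALA and 9.78 and 9.49 in SFA. Aldh1a7 fell by 1.47 in ALA (SE 0.21, adjusted p = 0.0114), a call lost without either control array (adjusted p = 0.0514 and 0.0626), and was 1.34 lower in ALA than in SFA (adjusted p = 0.0429). The sulfotransferase gene Sult1d1 rose by 1.17 in ALA and 0.83 in SFA (SE 0.21, adjusted p = 0.0213 and 0.0419), and without control replicate 2 these were 0.87 and 0.53 (adjusted p = 0.0626 and 0.141). The ALA call of Sult1d1 was also lost without either ALA array (1.07 and 1.28), and its SFA call held without control replicate 1 only. Abcc3, an efflux transporter gene, fell by 1.04 in ALA (adjusted p = 0.0300), or by 0.72 without control replicate 1 (adjusted p = 0.0584), and the call held without control replicate 2 only. Abcc2, the canalicular efflux pump, fell by 0.57 in SFA (adjusted p = 0.0296) and lost the call without any control or SFA array (-0.58 to -0.55). Alas1, the first enzyme of haem synthesis, was called in SFA (-0.55, adjusted p = 0.0396) and was 1.08 higher in ALA than in SFA (SE 0.13, adjusted p = 0.0383), and both calls were lost whichever array was left out. The other ALA minus SFA call, of Aldh1a7, survived the loss of 1 array, ALA replicate 2, and was kept in 4 of the 9 settings that leave out no single array. Among those 9, Alas1 kept its calls in 6 (SFA) and 7 (ALA against SFA), Sult1d1 in SFA in 7, and Abcc2 in SFA and Abcc3 in ALA in 8.

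**Figure D3:**
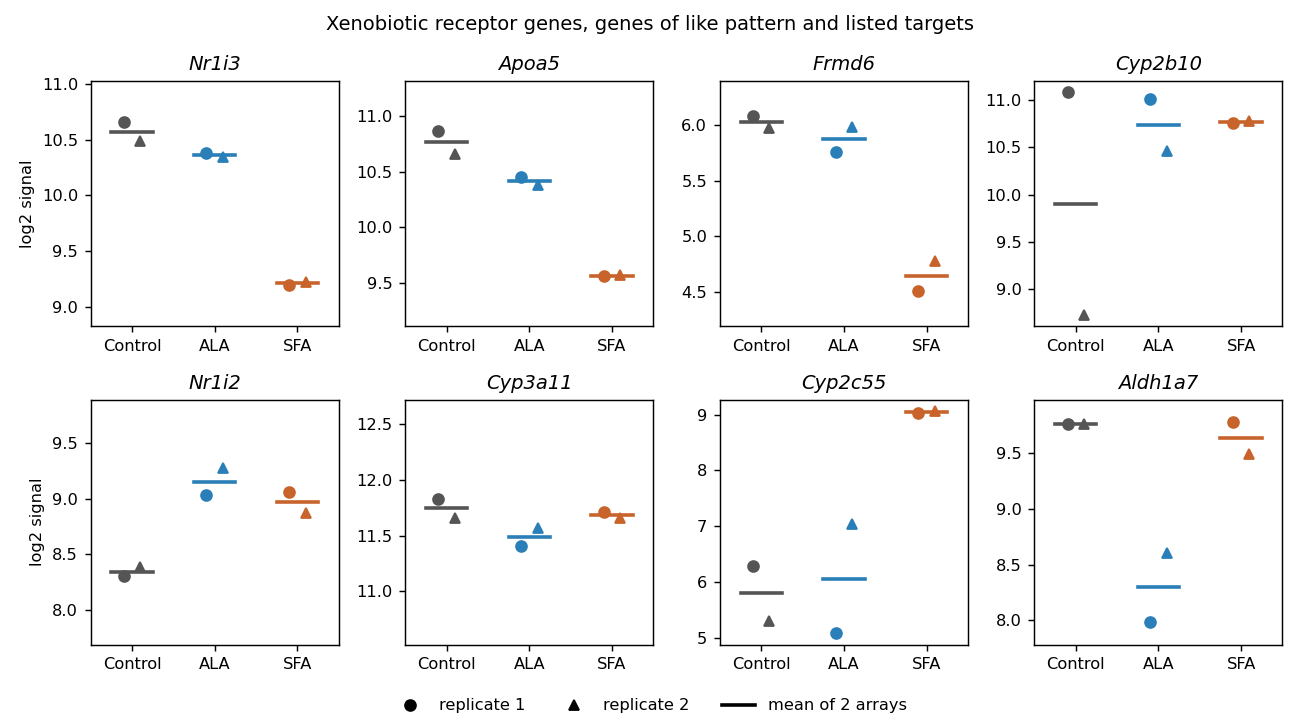
Log2 signal on each array of Nr1i3 and Nr1i2, of Apoa5 and Frmd6, whose patterns lie near that of Nr1i3, and of 4 listed PXR and CAR targets (circles replicate 1, triangles replicate 2, bars means of 2 arrays, each axis set per gene and not starting at 0). The SFA arrays are low in Nr1i3, Apoa5 and Frmd6 and high in Cyp2c55, and the control arrays of Cyp2b10 lie at 11.08 and 8.73.

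For FXR, SHP and LRH-1, the members tied to bile acids, no difference was called. Nr1h4, which encodes FXR, was at 9.40 and 9.46 in control, 9.54 and 9.09 in ALA and 8.92 and 9.003 in SFA. Both SFA arrays lay below the controls, and the ALA arrays lay on either side of them. The differences were -0.12 in ALA (SE 0.17, adjusted p = 0.710) and -0.47 in SFA (SE 0.17, 95% interval -0.87 to -0.07, adjusted p = 0.107). Nr0b2, which encodes SHP and is itself induced by FXR, was at 7.99 and 8.70 in control, 6.93 and 7.53 in ALA and 7.79 and 7.73 in SFA. All 4 arrays of the test diets lay below both controls, and the duplicates of control and ALA were 0.70 and 0.60 apart. Its ALA difference of -1.11 (SE 0.27, 95% interval -1.76 to -0.47) had an adjusted p of 0.0533, a level 2.17-fold lower that did not pass. It passed in 4 of the 15 settings: with a signal minimum of 6 (adjusted p = 0.0409), with an intensity trend and robust fit (0.0467), with the replicate number as a block (0.0342) and without control replicate 1 (-1.47, adjusted p = 0.0402). In SFA the difference was -0.58 (SE 0.27, adjusted p = 0.191). Nr5a2, which encodes LRH-1, was at 9.24 and 9.17 in control, 8.94 and 8.88 in ALA and 8.87 and 8.92 in SFA. Here too the controls lay above the other 4 arrays, by little, with differences of -0.29 and -0.31 (SE 0.12, adjusted p = 0.182 and 0.125). Of the 10 members, Nr0b2 had the widest gap between duplicates in control and in ALA. No link between its values and the 2 TCAAGG strings of its window was tested.

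Among the listed targets of FXR, SHP and LRH-1, which include Nr0b2 itself, 20 were tested of 22. In ALA 0 were called higher and 1 lower (5% of those tested beside 7.93% of all genes, median -0.05). In SFA it was 0 higher and 4 lower (20% beside 13.8%, median -0.14), and between ALA and SFA 0 were called (beside 1.53%). With 1 array left out, the counts of lower genes ran from 0 to 3 in ALA and from 0 to 4 in SFA. Cyp7b1, the oxysterol hydroxylase of the alternative bile acid pathway, was at 8.35 and 10.98 in control, 5.50 and 5.46 in ALA and 5.39 and 5.68 in SFA. It fell by 4.18 and 4.13 (SE 0.72, adjusted p = 0.0197 and 0.0157), and the control arrays lay far apart. Those calls were lost without either array of the test diet (ALA -4.20 and -4.17, adjusted p = 0.0834 and 0.0979, SFA -3.98 and -4.28, 0.0834 and 0.0739) and with the intensity trend and robust fit. Cyp7b1 is also on the adult liver list. In SFA, Abcc2, the phospholipid flippase gene Abcb4 (-0.54, SE 0.13, adjusted p = 0.0369) and the bile acid conjugating enzyme gene Baat (-0.48, SE 0.12, adjusted p = 0.0441) fell too. Each of these 3 lost its call without any 1 control or SFA array, with Abcb4 between -0.62 and -0.45 and Baat between -0.51 and -0.45. Without the signal filter all 3 missed the threshold as well, and Abcb4 and Baat also after centring on the 75th percentile (adjusted p = 0.0589 and 0.0782) and Baat with the replicate block (0.0636). Abcb11, the bile salt export pump, was at 10.90 and 10.85 in control, 10.19 and 10.44 in ALA and 10.81 and 10.87 in SFA. Its differences were -0.55 (SE 0.13, adjusted p = 0.0519) and -0.03. The former passed with a signal minimum of 6 (adjusted p = 0.0342) and with the intensity trend and robust fit (0.0118). Cyp7a1, the rate-limiting enzyme of bile acid synthesis, was at 11.02 and 10.50 in control, 11.23 and 10.93 in ALA and 10.27 and 10.17 in SFA. Its differences of 0.33 and -0.54 (SE 0.20, adjusted p = 0.367 and 0.113) and those of Cyp8b1, the sterol hydroxylase for cholic acid (0.05 and 0.42, SE 0.24), were not called.

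Nr1h3, which encodes LXR alpha, was at 8.64 and 8.32 in control, 8.90 and 8.56 in ALA and 8.60 and 8.50 in SFA. The 3 diets overlapped. Differences from control were 0.26 (SE 0.17, 95% interval -0.15 to 0.66, adjusted p = 0.413) and 0.07 (SE 0.17, 95% interval -0.33 to 0.48, adjusted p = 0.791). Its close relative Nr1h2 was not analysed here. All 16 listed LXR targets were tested, Nr1h3 itself among them. In ALA 3 were called higher and 2 lower, in SFA 2 higher and 2 lower, and between ALA and SFA 1 higher and 0 lower, with medians of -0.08, -0.12 and 0.14. These are 31.25%, 25% and 6.25% of those tested, beside 7.93%, 13.8% and 1.53% of all genes. Those called did not follow a single direction. With 1 array left out, the counts ran from 1 to 3 higher in either diet, from 0 to 1 lower in ALA and from 1 to 2 lower in SFA. Lpl, the lipoprotein lipase gene, was at 5.67 and 6.45 in control, 9.16 and 9.87 in ALA and 10.02 and 10.07 in SFA, and rose by 3.45 and 3.98 (SE 0.30, adjusted p = 0.00339 and 0.00181) in every setting. Mylip, which encodes the ligase that degrades the LDL receptor, rose by 1.17 and 0.82 (SE 0.16, adjusted p = 0.00952 and 0.0221). Without control replicate 2 Mylip was at 1.01 and 0.66 (adjusted p = 0.0534 and 0.108), and its SFA call also went without either SFA array (0.90 and 0.75). Abcg1, a cholesterol efflux transporter, rose by 0.63 in ALA (adjusted p = 0.0364) and was named after its value was seen.

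Srebf1, the lipogenic transcription factor that LXR induces, was at 8.88 and 8.79 in control, 7.87 and 8.26 in ALA and 7.94 and 7.66 in SFA. It fell by 0.77 in ALA (SE 0.17, adjusted p = 0.0427) and by 1.03 in SFA (SE 0.17, adjusted p = 0.0138). The ALA call of Srebf1 was lost whichever array was left out (-0.97 to -0.58), and the SFA call without any control or SFA array (-1.17 to -0.90). Mlxipl, which encodes the carbohydrate sensor ChREBP, fell by 1.23 in SFA (SE 0.13, adjusted p = 0.00369) in every setting. In ALA its difference was -0.51 (adjusted p = 0.0543). That difference passed with a signal minimum of 6 (adjusted p = 0.0352) and after centring on the 75th percentile (0.0486). It also passed with the intensity trend and robust fit (0.0181). Mlxipl was 0.72 higher in ALA than in SFA (adjusted p = 0.0470), a call lost whichever array was left out (0.67 to 0.77). Scd1, the stearoyl-CoA desaturase gene, was at 11.58 and 11.74 in control, 8.77 and 10.47 in ALA and 11.47 and 11.43 in SFA. It fell by 2.04 in ALA (SE 0.47, adjusted p = 0.0459), with the ALA arrays far apart, and was -1.19 without ALA replicate 1 and -2.89 without ALA replicate 2. The call of Scd1 was lost without either control array (-2.12 and -1.96) or either SFA array, without the signal filter (adjusted p = 0.0527), after quantile normalization (0.0532) or cyclic loess (0.0509), with the intensity trend and robust fit (0.176) and with only the arrays of the diets compared (0.0841). The ALA call of Srebf1 was also lost without the filter, with the replicate block and with only the arrays compared. That of Mlxipl between ALA and SFA was kept in 3 of the 9 settings that leave out no single array, and not under any of the other scalings. The sterol transporter genes Abca1 (0.13 and -0.21, SE 0.13) and Abcg5 (-0.25 and -0.14, SE 0.18) were not called.

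Hnf4a, which encodes the factor that maintains hepatocyte identity, had the smallest range of diet means of the 10 (0.10). It was at 10.60 and 10.76 in control, 10.85 and 10.48 in ALA and 10.59 and 10.58 in SFA. The control and ALA arrays overlapped, and the differences were -0.02 in ALA (SE 0.16, 95% interval -0.39 to 0.36, adjusted p = 0.958) and -0.10 in SFA (SE 0.16, 95% interval -0.47 to 0.28, adjusted p = 0.701). The sign of the ALA difference turned after quantile normalization. Of 28 listed HNF4A targets, 23 were tested. In ALA 1 was called higher and 0 lower, in SFA 1 higher and 2 lower, and between ALA and SFA 1 higher. The shares called were 4.35%, 13.04% and 4.35% of those tested, beside 7.93%, 13.8% and 1.53% of all genes. The medians were 0.03, -0.14 and 0.14. Apoa4, an apolipoprotein of triglyceride-rich particles, rose by 1.09 and 1.04 (SE 0.22, adjusted p = 0.0328 and 0.0290). Without control replicate 2 these were 0.91 and 0.85, and neither passed (adjusted p = 0.148 and 0.137). With an array left out, the ALA call held without ALA replicate 2 only, and the SFA call without the ALA arrays only. The ALA call was also lost with only the arrays compared. Apoa5, which promotes triglyceride clearance, was at 10.87 and 10.66 in control, 10.46 and 10.38 in ALA and 9.56 and 9.57 in SFA. It fell by 1.20 in SFA (SE 0.13, adjusted p = 0.00419) in every setting and was 0.86 higher in ALA than in SFA (adjusted p = 0.0393), a call lost whichever array was left out (0.82 to 0.89) and in 4 of the other 9 settings. Ces3a, a carboxylesterase gene that is also on the adult liver list, fell by 1.49 in SFA (SE 0.33, adjusted p = 0.0306) and lost the call without any control or SFA array (-1.80 to -1.18) and with the intensity trend and robust fit.

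Rxra, the shared partner, was at 10.004 and 10.080 in control, 9.92 and 9.90 in ALA and 9.75 and 9.65 in SFA. The arrays fell in the order control, ALA, SFA without overlap, within a span of 0.43. Its differences were -0.13 in ALA (SE 0.12, adjusted p = 0.557) and -0.34 in SFA (SE 0.12, 95% interval -0.62 to -0.06, adjusted p = 0.103), and the latter passed only with the intensity trend and robust fit (adjusted p = 0.0479). The second RXR gene, Rxrb, was at 6.82 and 6.80 in control, 6.58 and 6.43 in ALA and 6.44 and 6.42 in SFA, and its differences of -0.31 and -0.38 (SE 0.12, adjusted p = 0.179 and 0.0831) did not pass. Of 20 listed coregulators of nuclear receptors, 18 were tested and 1 was called, Ppargc1a, which encodes the coactivator PGC-1 alpha. That is 5.56% against control in each diet, beside 7.93% of all genes in ALA and 13.8% in SFA. Ppargc1a was at 7.07 and 7.04 in control, 8.36 and 9.01 in ALA and 8.02 and 8.17 in SFA. It rose by 1.63 in ALA (SE 0.21, adjusted p = 0.00834) and 1.04 in SFA (SE 0.21, adjusted p = 0.0251). The ALA call missed the threshold without control replicate 2 (1.62, adjusted p = 0.0527), and the SFA call without any control or SFA array (0.96 to 1.12). Of 13 further liver transcription factors, 11 were tested. The share called was 27.3% in ALA and 18.2% in SFA, beside 7.93% and 13.8% of all genes. Foxa1, a pioneer factor, fell by 0.94 and 0.89 (SE 0.20, adjusted p = 0.0366 and 0.0327), or by 0.71 and 0.66 without control replicate 2, when neither passed. Its ALA call was lost without any other array but control replicate 1 (-1.11 to -0.76), and its SFA call without either SFA array (-0.78 and -0.99). In ALA, Gata6 and Cebpb, a regulator of the acute phase response, rose by 0.83 and 0.81 (SE 0.17 each, adjusted p = 0.0311 and 0.0324), and without control replicate 2 they were at 0.65 and 0.92 and did not pass. The call of Gata6 was lost without every array but control replicate 1 (0.65 to 0.96), and that of Cebpb without any control or ALA array (0.70 to 0.92). Tbx3 fell by 0.72 in SFA (adjusted p = 0.0489), a call lost whichever array was left out (-0.96 to -0.48) and under each other scaling (-0.67 to -0.63). Foxa1 in ALA kept its call in 6 of the 9 settings that leave out no single array, and Gata6 and Cebpb in 8.

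Esr1, which encodes oestrogen receptor alpha, was at 7.55 and 7.27 in control, 8.05 and 7.63 in ALA and 7.33 and 7.30 in SFA. Both ALA arrays lay above the other 4, and the control and SFA arrays overlapped. The differences of 0.43 in ALA (SE 0.18, 95% interval 0.01 to 0.85, adjusted p = 0.187), -0.10 in SFA (SE 0.18, adjusted p = 0.728) and 0.53 between ALA and SFA (SE 0.18, 95% interval 0.11 to 0.94, adjusted p = 0.146) did not pass. The ALA arrays were those with Y-linked and no Xist signal, and control replicates 1 and 2, which differ in that signal, were at 7.55 and 7.27. Of 10 listed oestrogen receptor targets and partners, 7 were tested, and the only call was the fall of Foxa1 in both diets. That is 14.3% in each diet, beside 7.93% of all genes in ALA and 13.8% in SFA.

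Nr3c1, which encodes the glucocorticoid receptor, was at 7.72 and 7.74 in control, 7.66 and 7.56 in ALA and 7.95 and 7.73 in SFA. Its differences were small and of opposite sign, -0.12 in ALA (SE 0.13, 95% interval -0.43 to 0.19, adjusted p = 0.625) and 0.11 in SFA (SE 0.13, 95% interval -0.20 to 0.42, adjusted p = 0.592). Several genes that this receptor is known to induce rose in the test diets. Of 20 listed, 19 were tested: 7 were called higher and 0 lower in ALA (median log2 difference 0.60), 4 higher and 0 lower in SFA (0.28), and 2 higher and 0 lower in ALA against SFA (0.24). The shares called were 36.8%, 21.1% and 10.5%, beside 7.93%, 13.8% and 1.53% of all genes. Over all tested genes the medians were -0.01, -0.05 and 0.04. Leaving out 1 array at a time, the counts of genes called higher ran from 3 to 7 in ALA (3 without ALA replicate 2, 4 without ALA replicate 1), from 1 to 6 in SFA (1 without either SFA array, 2 without control replicate 2), and were 0 in every case between ALA and SFA. Several listed genes answer to other signals as well, the metallothioneins to metals and Lcn2 to inflammation.

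Fkbp5, which encodes a chaperone that restrains the glucocorticoid receptor, was at 7.02 and 6.74 in control, 8.74 and 8.61 in ALA and 7.88 and 7.72 in SFA. The 3 diets did not overlap, with ALA highest. Fkbp5 rose by 1.80 in ALA (SE 0.15, adjusted p = 0.00282) in every setting. In SFA it rose by 0.92 (SE 0.15, adjusted p = 0.0121), a call that went without control replicate 2 (0.78, adjusted p = 0.0678) or either SFA array (0.84 and 1.00). Zbtb16, a zinc finger factor gene induced by glucocorticoids, was at 7.33 and 7.85 in control, 9.43 and 9.84 in ALA and 8.35 and 8.32 in SFA. It rose by 2.04 in ALA (SE 0.21, adjusted p = 0.00474) in every setting. In SFA its difference was 0.75 (adjusted p = 0.0592). That difference passed with a signal minimum of 6 (adjusted p = 0.0485) and after centring on the 75th percentile (0.0446). It also passed with the intensity trend and robust fit (0.0352) and with the replicate block (0.0454). Between ALA and SFA, Fkbp5 was 0.88 and Zbtb16 1.30 higher in ALA (adjusted p = 0.0431 each), and both calls were lost whichever array was left out (0.80 to 0.96 and 1.09 to 1.51). They were also lost without the signal filter, with the replicate block, with only the arrays compared and under each other scaling: quantile normalization (adjusted p = 0.0547 for Fkbp5 and 0.0545 for Zbtb16), centring on the 75th percentile (0.0547 and 0.0524) and cyclic loess (0.0506 each). Per1, a clock gene that glucocorticoids induce, rose by 1.06 in ALA (SE 0.16, adjusted p = 0.0124) and was named after its value was seen.

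The metallothionein gene Mt1 was at 9.41 and 9.63 in control, 11.95 and 12.03 in ALA and 11.93 and 11.83 in SFA, and rose by 2.47 and 2.36 (SE 0.13, adjusted p = 0.00106 and 0.000774) in every setting. Mt2 rose by 2.77 and 2.67 (SE 0.39, adjusted p = 0.0102 and 0.00920), and lost the call without either array of the test diet (adjusted p = 0.0568 and 0.0618 in ALA, 0.0597 and 0.0534 in SFA) and with the intensity trend and robust fit (0.0627 and 0.0530). Lcn2, an iron-binding acute phase gene, was at 7.63 and 9.86 in control, 11.91 and 11.10 in ALA and 9.38 and 9.45 in SFA. It rose by 2.76 in ALA (SE 0.64, adjusted p = 0.0470), or 1.64 without control replicate 1 (adjusted p = 0.0542), and the call held without control replicate 2 only. It was kept in 4 of the 9 settings that leave out no single array. Gadd45g, a stress-induced growth arrest gene, rose by 1.48 in SFA (SE 0.36, adjusted p = 0.0416), or 0.93 without control replicate 2 (adjusted p = 0.140), and the call held without control replicate 1 only and in 7 of those 9 settings. Of the liver enzymes on the list, Tat, tyrosine aminotransferase, rose by 0.66 in ALA (SE 0.12, adjusted p = 0.0263). That call was lost whichever array was left out (0.57 to 0.75) or with only the arrays compared. In SFA the difference of Tat was 0.42 (adjusted p = 0.0669). It passed with a signal minimum of 6 (adjusted p = 0.0468) and after quantile normalization (0.0482). It also passed after centring on the 75th percentile (0.0393) and with the intensity trend and robust fit (0.0110). Pck1, which encodes the gluconeogenic PEP carboxykinase, was at 11.58 and 11.28 in control, 11.66 and 11.83 in ALA and 11.43 and 11.44 in SFA, with differences of 0.31 (SE 0.15, adjusted p = 0.244) and 0.01 (adjusted p = 0.981).

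**Figure D4:**
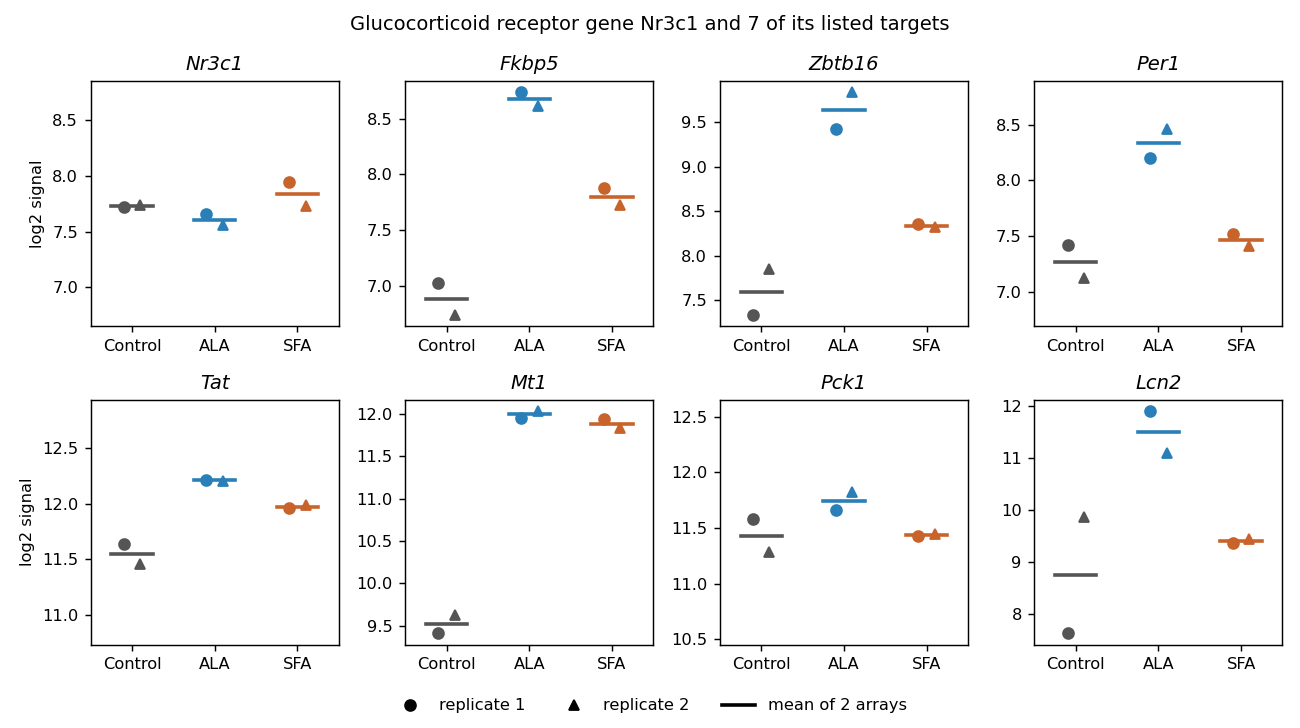
Log2 signal on each array of Nr3c1 and 7 genes of the glucocorticoid receptor target list, by maternal diet (circles replicate 1, triangles replicate 2, bars means of 2 arrays, each axis set per gene and not starting at 0). Nr3c1 lies between 7.56 and 7.95 on all 6 arrays, while Fkbp5 and Zbtb16 are highest in ALA and Mt1 is at 11.83 or more in both test diets.

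The rest of the nuclear receptor family was read beside the 10. Of 39 other nuclear receptor genes, 35 had a single-gene probe and 23 were tested. In ALA 0 were called higher and 2 lower, in SFA 1 higher and 4 lower, and between ALA and SFA 0 were called. These are 8.70%, 21.7% and 0% of those tested, beside 7.93%, 13.8% and 1.53% of all genes. With 1 array left out, the counts of lower genes ran from 2 to 3 in ALA and from 1 to 4 in SFA. Nr1d1, which encodes the clock repressor REV-ERB alpha, was at 10.51 and 10.78 in control, 9.19 and 9.48 in ALA and 9.55 and 9.43 in SFA. It fell by 1.31 and 1.16 (SE 0.16, adjusted p = 0.00694 and 0.00758), and the SFA call missed the threshold without SFA replicate 2 (-1.10, adjusted p = 0.0524). Nr3c2, which encodes the mineralocorticoid receptor, was at 7.12 and 6.91 in control, 5.82 and 5.62 in ALA and 5.86 and 5.63 in SFA. It fell by 1.29 and 1.27 (SE 0.15, adjusted p = 0.00655 and 0.00522) in every setting. In SFA the retinoic acid receptor gene Rarb rose by 0.73 (SE 0.14, adjusted p = 0.0213), or 0.62 without control replicate 2 (adjusted p = 0.109), and lost the call without either SFA array too (0.65 and 0.81). Nr1d2, which encodes REV-ERB beta, fell by 0.63 in SFA (SE 0.12, adjusted p = 0.0207) and lost the call without any control or SFA array (-0.64 to -0.61). The fifth, Nr2f6, fell by 0.62 in SFA (SE 0.12, adjusted p = 0.0201) and was named after its value was seen. Ppara, the fatty acid receptor, was at 9.89 and 9.77 in control, 9.86 and 9.80 in ALA and 9.59 and 9.50 in SFA, with differences of -0.0029 and -0.29 (SE 0.12) that were not called. Pparg was at 8.38 and 7.79 in control and its differences of -0.23 and -0.07 (SE 0.21) were not called either.

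**Figure D5:**
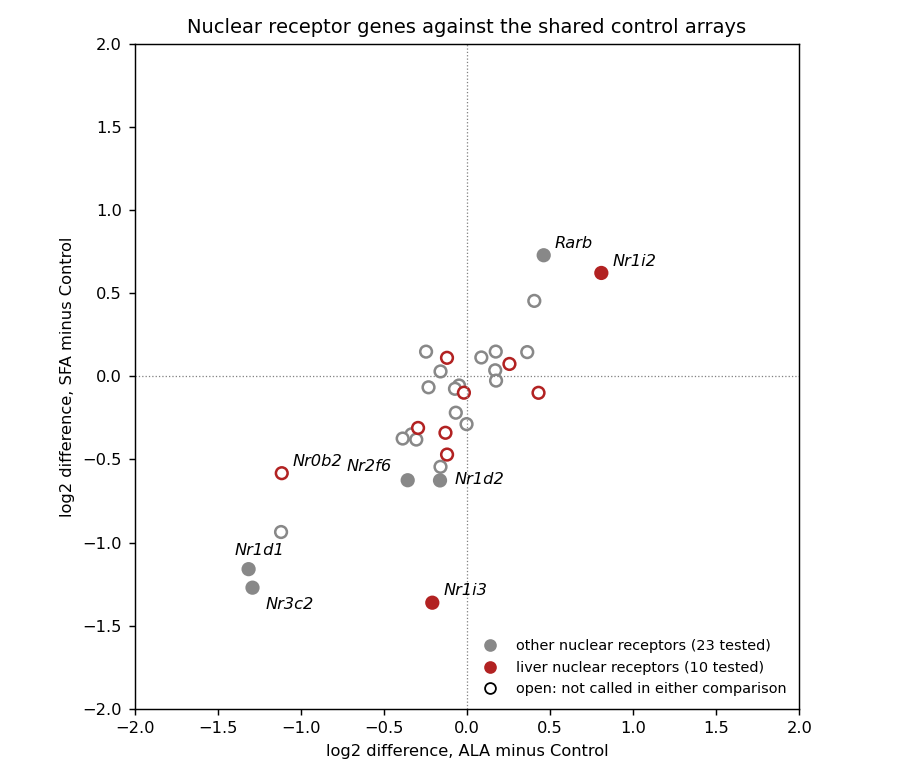
Log2 difference from control of 33 tested nuclear receptor genes, ALA on the horizontal and SFA on the vertical axis, each point the difference of means of 2 arrays (red the 10 liver receptors, grey the 23 others, filled where called in either comparison). Both axes use the same 2 control arrays, so points share an error along the diagonal. Nr1i3 lies at -0.21 and -1.36, away from the diagonal.

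The 10 receptors differed among themselves in how closely their duplicates fell. The median gap between duplicates over the 10 was 0.12 in control, 0.29 in ALA and 0.07 in SFA, where all tested genes had medians of 0.15, 0.17 and 0.13. In ALA the gap of Nr0b2 was 0.60, of Nr1h4 0.45, of Esr1 0.42 and of Hnf4a 0.38, while in SFA no member exceeded 0.21. The patterns were compared by the root mean square difference of log2 values over the 6 arrays, each gene centred on its own mean. The closest pair of members was Nr5a2 and Rxra (0.11), followed by Nr1h3 and Esr1 (0.15). Among all tested genes, the nearest to Nr1i3 were Frmd6, a FERM domain gene (0.11), Apoa5 (0.12) and the microRNA gene Mir680-3 (0.13). Frmd6 was at 6.08 and 5.98 in control, 5.76 and 5.98 in ALA and 4.51 and 4.78 in SFA, and Mir680-3 at 6.65 and 6.56, 6.30 and 6.52, and 5.17 and 5.51. Nearest to Nr1i2 were Brca1, a DNA repair gene (0.05), Mcrip2 (0.07) and Adgra2, an adhesion receptor gene known from endothelial cells (0.07). Brca1 was at 4.68 and 4.73 in control, 5.36 and 5.57 in ALA and 5.51 and 5.23 in SFA. The control values of Brca1 and the SFA values of Frmd6 lay below 5, the minimum set on the mean signal. Whether signals this low follow RNA amount was not tested. These genes were picked for their likeness over the same 6 arrays, so their differences between diets are descriptions.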

How the data were processed

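Total RNA of pooled mouse livers was measured on 6 Affymetrix arrays. The deposited values range from 1.98 to 13.1 and were read as log2 signals. Their log base is inferred from this range. Per the submitters' processing notes, the authors used RMA and Partek 6.6, and the annotation version is not given in the sources used here. No further scaling was applied. Of 35556 probes, 21789 had 1 gene symbol. Probes with several or no symbols were left out, so a gene with only such probes was not analysed here.

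In R 4.3.3 with limma 3.58.1, 1 mean per diet was fitted to all 6 arrays (3 residual degrees of freedom), with default empirical Bayes moderation. P-values are two-sided and were adjusted by Benjamini-Hochberg over the 10977 genes with a mean log2 signal of at least 5. Genes under an adjusted p of 0.05 were called. Differences are given with their standard errors (SE) and n = 2 arrays per diet, and that number limits the precision. The fit was also run on simulated data with independent normal noise and effects added to the ALA arrays only. Those data did not imitate the sex or cell makeup of these pools, so they do not test the calls made here.

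The members and the gene lists were chosen with earlier results of these data known. The named genes are all members, up to 4 called genes with the largest change in each receptor, partner or target list and contrast with control, up to 2 between ALA and SFA, 15 fixed genes with a value and, for each member called by the F test, the 3 genes of most similar pattern. The 15 alternatives were other signal filters (none, or a minimum of 6), quantile normalization, centring on the 75th percentile, cyclic loess, the mean of a gene's probes, an intensity trend with a robust fit, the replicate number as a block, only the arrays of the diets compared, and each array left out in turn. For a contrast of 2 diets, leaving out either array of the third diet gave the same fit as only the arrays compared. The 15 settings are therefore not all distinct. Use of the alternatives on list counts and list genes was added after seeing the data.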

Additional observations from a re-analysis of the deposited data

How the results depend on the processing

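With 2 arrays per diet, most calls rest on few degrees of freedom, and the cause of the shifts below was not tested. The titles share replicate numbers 1 and 2, and the labels do not say whether these pair the pools. Deviations of same-numbered arrays correlated across genes at -0.03 (control and ALA), -0.004 (control and SFA) and 0.02 (ALA and SFA). No deviation shared by most genes was seen, but these values cannot tell whether the pools were paired. Of the 450 recomputed member differences, 417 kept direction and side of the threshold, 17 lost the call, 5 gained it and 11 changed sign. Part of this agreement was fixed in advance. Each member had 1 probe, so averaging probes could not change its values, and several other settings left the log2 differences unchanged. Genes of the lists kept direction and side of the threshold in 1149 of 1440 cases.

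In ALA against control, 2 members were called with a minimum of 6, with the intensity trend and robust fit and with the replicate block, and 0 to 1 with an array left out. Genes called were 448 with only the arrays compared and 267 to 475 with an array left out. In SFA against control, 1 member was called without a filter and with the replicate block, and 1 to 2 with an array left out, when genes called ran from 245 to 1428. Between ALA and SFA, members called were 0 with the replicate block, with only the arrays compared and with any array left out. Genes called there were 32 without a filter, 293 with a minimum of 6, 68 after quantile normalization, 100 after 75th percentile centring, 76 after cyclic loess, 421 with the trend and robust fit, 0 with the replicate block by limma (2393 at an unadjusted p under 0.05), 11 with only the arrays compared and 0 to 36 with an array left out. The F test called 318 to 988 genes and 1 to 2 members with an array left out.

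Signs changed only for differences that were not called. With an array left out, ranges that crossed 0 were, in ALA against control, Hnf4a (-0.21 to 0.17), Nr1h4 (-0.35 to 0.10), Ppara (-0.063 to 0.057), Pparg (-0.53 to 0.062), Cyp8b1 (-0.34 to 0.44), Cyp2c55 (-0.72 to 1.24), Cyp2b10 (-0.35 to 2.01) and Abcg5 (-0.50 to 0.0062). In SFA against control they were Esr1 (-0.24 to 0.039), Nr1h3 (-0.084 to 0.23), Lcn2 (-0.45 to 1.78), Pparg (-0.36 to 0.23), Cyp3a11 (-0.15 to 0.029), Cyp2b10 (-0.31 to 2.05), Pck1 (-0.14 to 0.16) and Aldh1a7 (-0.27 to 0.016), and in ALA against SFA Nr5a2 (-0.016 to 0.047) and Hnf4a (-0.11 to 0.27). Quantile normalization turned Hnf4a in ALA to 0.0021, Ppara in ALA to 0.017 and Cyp3a11 in SFA to 0.0060. Cyclic loess turned Ppara in ALA to 0.015 and Pck1 in SFA to -0.051. Centring on the 75th percentile turned Pparg, Cyp3a11 and Abcb11 in SFA to 0.029, 0.036 and 0.065, and Nr5a2 and Hnf4a in ALA against SFA to -0.093 and -0.030. That centring moved the median of all genes in ALA minus SFA from 0.04 to -0.07. Signal over background sets the limit for low genes.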
